A study of Homo sapiens with 18 samples.

Results

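HEPHL1, LCN2 and 7 other genes that move, oxidise, store or bind iron were followed in 18 RNA libraries of MCF10A and HCT116 cells. The 9 genes, of 40916 symbols listed, were taken by symbol from the count tables: HEPHL1, HEPH and CP, LCN2, TFRC and SLC11A2, FTH1 and FTL, and SLC40A1. The set was put together because HEPHL1 had the largest log2 fold change in irradiated MCF10A among 6639 called genes with at least 10 CPM in the higher group. Without that minimum, 10 called genes stood above it. The irradiation values of the 9 genes in MCF10A are therefore given as a description, without p-values, and nothing is read from the counts of calls there. For HEPHL1 no p-value is given in any comparison that uses MCF10A libraries.

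Poly(A)-selected RNA was sequenced from 6 groups of 3 biological replicates. MCF10A cells come from non-malignant breast epithelium and here expressed an H2B-GFP reporter. HCT116 cells come from a colon cancer, and those used here carried no reporter and are described as p53-null. Each line was grown alone, or both were mixed in equal parts, and each culture was either non-irradiated (NIR) or given 10 Gy (IR). The sample titles give day 2 and the series description gives 72 h as the time of harvest. MCF10A were kept in F12 and DMEM with horse serum, EGF, hydrocortisone, cholera toxin and insulin, and HCT116 in McCoy's 5A with fetal bovine serum, both with penicillin and streptomycin. The line and its medium cannot be told apart, and the medium of the mixtures is not stated.

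Libraries held 25.7 to 40.8 M counts (M for 1000000). The summed level of 10 basal mammary genes was 10685 to 20485 CPM (a gene's counts over the library total, times 1000000) in MCF10A and 724 to 1496 CPM in HCT116. The sum of 10 intestinal genes was 7.97 to 11.2 CPM in MCF10A and 311 to 340 CPM in HCT116, where CDX1 and ASCL2 were at 0. Basal mammary sums were higher in the IR than in the NIR libraries of all 3 kinds of culture, and their part in the results was not tested. Low counts were mostly even, 68.3% of those from 1 to 10, so mates may have been counted one by one, and fits on halved counts were run as an alternative. Upper-quartile scaling moved the share of called genes that were higher to 57.5% from 47.4% for irradiation in MCF10A, to 62.4% from 51.8% between the NIR lines, and to 60.2% from 50.9% between the IR lines. Scaling by library size alone gave 62.2% and 62.4% between the lines. The median log2 difference between NIR lines over all genes was 0.25 with either, against 0.05.

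Iron enters most cells as ferric iron on transferrin, which TFRC takes up into endosomes. It is reduced there and carried into the cytosol by SLC11A2. Iron that is not used is stored in ferritin, a shell of FTH1 and FTL subunits, or leaves through SLC40A1, and multicopper ferroxidases such as HEPHL1, HEPH and CP oxidise ferrous iron. LCN2 binds iron held by siderophores and is a secreted protein of the innate response. Iron regulatory proteins bind a stem-loop, the iron-responsive element, and control several of these mRNAs when iron is scarce: bound in a 5′ UTR it blocks translation, and bound in the 3′ UTR of TFRC it stabilises the mRNA. Counts measure mRNA, so control of translation is not seen in them.

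The promoters of HEPHL1 and LCN2 are shown because these genes had the largest irradiation differences of the set in MCF10A. They are the 250 bases before each gene's RefSeq start in GRCh38.p14, both on the plus strand, at chr11:94021104-94021353 for HEPHL1 and chr9:128149203-128149452 for LCN2. GENCODE v29 starts LCN2 further upstream, at 128149071, so the LCN2 window lies inside the gene as annotated there. Capitals mark matches to GGGANNNNCC, the NF-kappaB motif, and to TGANTCA, the AP-1 motif, searched on both strands.
HEPHL1 promoter: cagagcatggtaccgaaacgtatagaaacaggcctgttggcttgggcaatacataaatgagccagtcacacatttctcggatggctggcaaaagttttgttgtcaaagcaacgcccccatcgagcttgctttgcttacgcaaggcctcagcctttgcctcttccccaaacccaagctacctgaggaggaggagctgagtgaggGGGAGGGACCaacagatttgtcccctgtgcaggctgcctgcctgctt
LCN2 promoter: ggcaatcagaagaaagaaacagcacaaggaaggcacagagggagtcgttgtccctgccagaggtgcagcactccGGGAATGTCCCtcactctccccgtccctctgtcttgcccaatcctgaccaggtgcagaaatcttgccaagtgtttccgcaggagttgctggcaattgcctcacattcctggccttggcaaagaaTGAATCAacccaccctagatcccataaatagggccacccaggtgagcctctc
HEPHL1 had 1 NF-kappaB match, GGGAGGGACC from -47 to -38, counted from the start. LCN2 had overlapping NF-kappaB matches on the 2 strands, from -176 to -167 and from -175 to -166, and the AP-1 match TGAATCA from -52 to -46. Of 35116 RefSeq promoter windows of this length, 22.6% held the NF-kappaB letters and 6.57% the AP-1 letters. Neither promoter held TGACNNNGC, the antioxidant response element (10.9% of windows), or TATAAA, the TATA box (10.7%). A match is only a string of letters, and no match says nothing of a factor.

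Iron-responsive elements are shown for the ferritin, TFRC and SLC40A1 mRNAs, the members in which they were found. They were searched in the UTRs of GENCODE v29 transcripts (GRCh38) as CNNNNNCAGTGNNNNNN with 5 paired bases, G-T pairs allowed, and the loop is in capitals.
FTH1 5′ UTR: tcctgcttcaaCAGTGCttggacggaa
FTL 5′ UTR: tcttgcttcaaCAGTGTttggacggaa
SLC40A1 5′ UTR: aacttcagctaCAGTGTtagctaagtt
TFRC 3′ UTR, match 1: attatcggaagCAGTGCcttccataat
TFRC 3′ UTR, match 2: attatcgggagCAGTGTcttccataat
TFRC 3′ UTR, match 3: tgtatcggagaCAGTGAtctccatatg
TFRC 3′ UTR, match 4: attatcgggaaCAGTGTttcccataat
FTH1, FTL and SLC40A1 carried 1 match each in the 5′ UTR, and TFRC carried 4 in the 3′ UTR. No match with these letters and all 5 pairs was found in SLC11A2. The search allowed no bulge or mismatch in these pairs, so a miss does not show that an mRNA lacks the element. Of 19669 protein-coding genes, 168 (0.854%) held a match in a UTR.

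**Figure D1:**
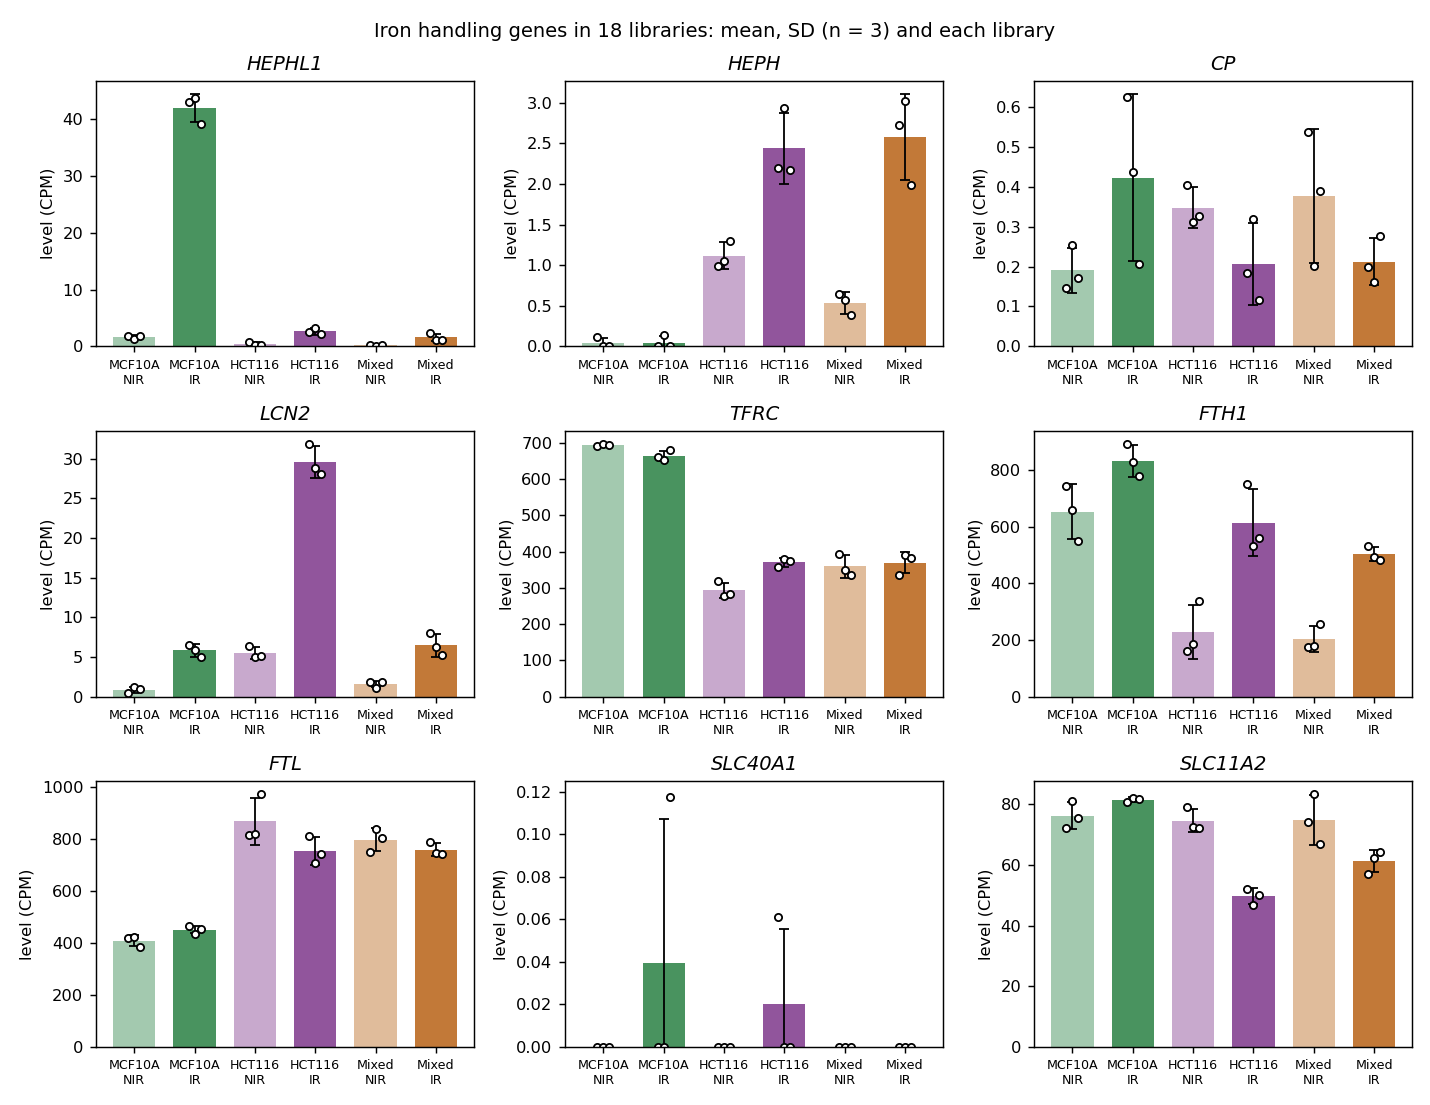
Level in CPM of the 9 iron handling genes in 6 groups. Bars are means of 3 libraries, error bars are SD and circles are single libraries. HEPHL1 stands at 39.1 to 43.8 CPM in irradiated MCF10A and at 3.33 CPM or less elsewhere, and LCN2 stands highest in irradiated HCT116 alone, at 28.1 to 31.9 CPM.

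HEPHL1 is a membrane-bound multicopper ferroxidase related to hephaestin and ceruloplasmin. Its gene spans 11:94021361-94113751 (GENCODE v29, GRCh38, plus strand), where a processed pseudogene, PHBP16, lies on the opposite strand. In MCF10A it was at 1.91, 1.24 and 1.78 CPM without irradiation and at 43.0, 43.8 and 39.1 CPM after it. These are 44 to 65 counts and 1171 to 1330 counts per library, and the log2 fold change was 4.66 (SE 0.128).

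In HCT116, whose libraries did not choose the gene, HEPHL1 was at 0.868, 0.311 and 0.217 CPM without irradiation and at 2.47, 3.33 and 2.21 CPM after it. All IR libraries were above all NIR libraries. The log2 fold change was 2.49 (SE 0.413), 3.31 without NIR replicate 1 and 2.18 without NIR replicate 3. In the mixtures it was at 0.286, 0.058 and 0.306 CPM and then at 2.35, 1.18 and 1.21 CPM, again without overlap. The log2 fold change there was 2.84 (SE 0.532), on 2 to 11 counts per NIR library. The share of MCF10A RNA in the mixtures, given below, was higher in IR, and its part in this difference was not tested. In both cultures the gene passed the filter on low counts only through the IR libraries, so these values are descriptions, without p-values. Without a filter they were 2.49 and 2.82.

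The order of HEPHL1 levels placed irradiated MCF10A far above every other group. HCT116 IR (2.21 to 3.33 CPM) overlapped Mixed IR (1.18 to 2.35 CPM), which overlapped MCF10A NIR (1.24 to 1.91 CPM). HCT116 NIR (0.217 to 0.868 CPM) and Mixed NIR (0.058 to 0.306 CPM) were lowest and overlapped each other. Between the lines, HEPHL1 in HCT116 stood at log2 -1.98 (SE 0.476) against MCF10A without irradiation and at -4.17 (SE 0.126) after it. Its irradiation response in HCT116 minus that in MCF10A was -2.25 (SE 0.412), and these 3 values are descriptions. Without HCT116 NIR replicate 1 the NIR difference was -2.79 and the difference of responses -1.41. Without HCT116 NIR replicate 3 they were -1.67 and -2.54.

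HEPH, hephaestin, is the ferroxidase known for moving iron out of intestinal enterocytes (X:66162549-66268867). In MCF10A it had 4 counts in a single library of each group and 0 in the others, too few to test. HCT116 held 0.984, 1.06 and 1.30 CPM without irradiation and 2.19, 2.94 and 2.18 CPM after it. HEPH rose in HCT116 by 1.15 on the log2 scale (SE 0.310, adjusted p = 0.0034, edgeR's quasi-likelihood test with Benjamini-Hochberg adjustment over all genes). The mixtures went from 0.644, 0.577 and 0.389 CPM to 2.72, 3.02 and 1.99 CPM, and HEPH rose there by 2.24 (SE 0.340, adjusted p = 1.1e-05, edgeR). The groups did not overlap in either culture. Every HCT116 library held more HEPH than any MCF10A library, 34 to 36 counts in NIR and 56 to 120 in IR. No test of that difference is given, because the gene passed the filter only through HCT116.

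CP, ceruloplasmin, the copper-carrying ferroxidase of plasma, lies at 3:149162410-149222055 and overlaps HPS3 on the opposite strand. It stayed between 0.117 and 0.625 CPM in all 18 libraries, 3 to 17 counts each. In HCT116 irradiation it was at log2 -0.69 (SE 0.653). Between the NIR lines it was at 0.65 (SE 0.568), with groups that did not overlap. Both are descriptions, since CP passed the filter there only through HCT116 NIR. In Mixed NIR against HCT116 NIR it was at 0.11 (SE 0.574, adjusted p = 0.96, edgeR), a difference not detectable at this depth.

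LCN2, lipocalin 2, is a small secreted protein at 9:128149071-128153455. In MCF10A it was at 0.412, 1.18 and 0.990 CPM without irradiation and at 6.54, 5.91 and 5.00 CPM after it, a log2 fold change of 2.72 (SE 0.278). The NIR libraries held 14 to 42 counts and the IR libraries 162 to 178. HCT116 held 6.36, 4.97 and 5.10 CPM without irradiation, as much as irradiated MCF10A, and 31.9, 28.8 and 28.1 CPM after it.

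LCN2 rose in HCT116 by 2.44 on the log2 scale (SE 0.120, adjusted p = 7.9e-14, edgeR). The mixtures went from 1.79, 1.10 and 1.89 CPM to 8.05, 6.25 and 5.19 CPM. LCN2 rose there by 2.01 (SE 0.234, adjusted p = 3.5e-07, edgeR). No IR library overlapped the NIR libraries of its culture. HCT116 exceeded MCF10A by log2 2.47 without irradiation (SE 0.313, adjusted p = 1.3e-06) and by 2.12 after it (SE 0.119, adjusted p = 1.1e-14, edgeR).

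The 2 genes thus had different orders. Irradiated HCT116 was highest for LCN2, and Mixed IR, MCF10A IR and HCT116 NIR overlapped at 4.97 to 8.05 CPM. Mixed NIR (1.10 to 1.89 CPM) overlapped MCF10A NIR (0.412 to 1.18 CPM). Levels per kilobase used the union of all GENCODE v29 exons of a gene, 5.345 kb for HEPHL1 and 1.598 kb for LCN2. Such a union can be longer than the mRNA present. On it HEPHL1 had a mean level of 7.85 CPM per kb and LCN2 3.64 in irradiated MCF10A. In irradiated HCT116 these were 0.500 and 18.5.

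**Figure D2:**
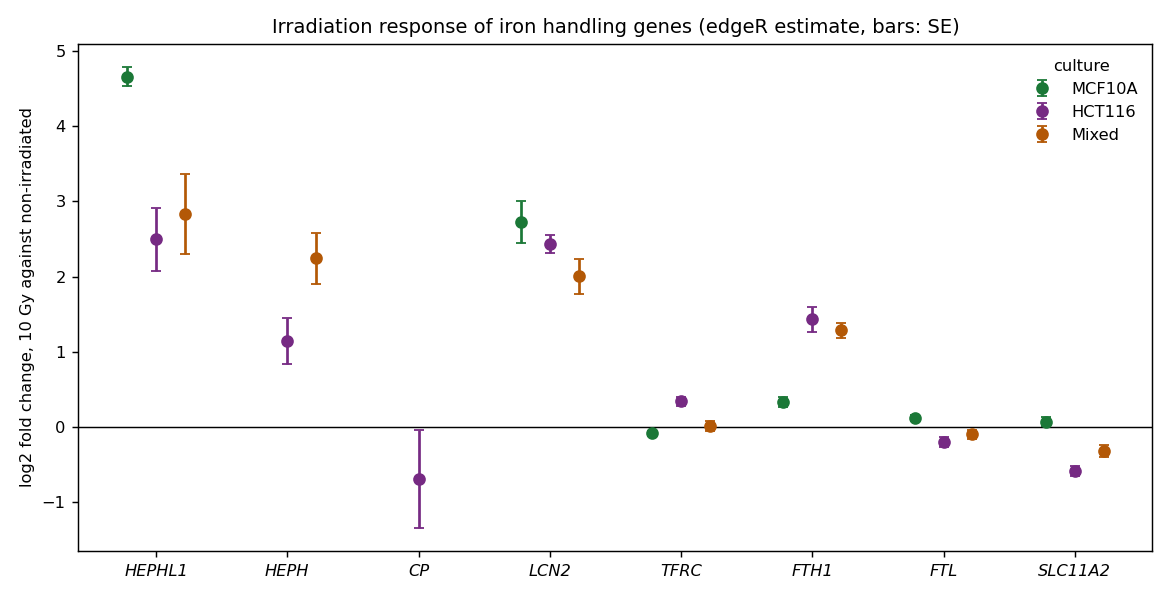
Log2 fold change of 10 Gy against non-irradiated in MCF10A, HCT116 and mixed cultures for the members that passed the filter, with SE bars from edgeR. HEPHL1 stands at 4.66 in MCF10A, 2.49 in HCT116 and 2.84 in the mixtures, LCN2 at 2.72, 2.44 and 2.01, and FTH1 at 0.33, 1.43 and 1.28.

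TFRC, the transferrin receptor (3:196027183-196082189), was at 690.7, 697.5 and 693.2 CPM in MCF10A without irradiation and at 660.2, 654.1 and 679.5 CPM after it. That is a log2 fold change of -0.08 (SE 0.0368), which was 0.000886 under upper-quartile scaling. HCT116 held 317.7, 278.6 and 283.4 CPM and then 356.6, 380.9 and 374.5 CPM, without overlap. TFRC rose in HCT116 by 0.35 (SE 0.0598, adjusted p = 3.6e-05, edgeR). The mixtures held 394.8, 348.1 and 334.5 CPM and then 335.7, 390.1 and 382.0 CPM. These overlapped, at log2 0.01 (SE 0.0646, adjusted p = 0.88, edgeR). Between the lines the log2 difference of TFRC, HCT116 against MCF10A, was -1.44 without irradiation (adjusted p = 7.1e-14) and -1.07 after it (adjusted p = 2.1e-17, edgeR).

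SLC11A2, also called DMT1, carries ferrous iron across endosomal and apical membranes (12:50979401-51028566). In MCF10A it was at 72.3, 81.1 and 75.3 CPM and, after irradiation, at 80.6, 82.1 and 81.8 CPM, overlapping groups with a log2 fold change of 0.07 (SE 0.056). HCT116 held 79.0, 72.5 and 72.3 CPM without irradiation and 52.1, 46.8 and 50.0 CPM after it. SLC11A2 fell there by 0.58 on the log2 scale (SE 0.0696, adjusted p = 2.3e-07, edgeR), with no overlap. In the mixtures the levels were 74.3, 83.4 and 67.0 CPM and then 57.1, 62.4 and 64.3 CPM, and SLC11A2 fell by 0.32 (SE 0.0774, adjusted p = 0.0018, edgeR). After irradiation the log2 difference of HCT116 against MCF10A was -0.95 (SE 0.0613, adjusted p = 2.4e-13, edgeR). Without irradiation the levels of the lines overlapped. The log2 difference of -0.23 (adjusted p = 0.0041, edgeR) was -0.03 with upper-quartile scaling and with library size alone (adjusted p = 0.71 and 0.68).

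FTH1, the ferritin heavy chain with ferroxidase activity, lies at 11:61959718-61967660 and overlaps BEST1 on the opposite strand. In MCF10A it was at 745.1, 661.0 and 551.0 CPM without irradiation and at 893.1, 827.2 and 779.8 CPM after it (log2 fold change 0.33, SE 0.0635). HCT116 without irradiation held 161.7, 187.1 and 338.1 CPM, so NIR replicate 3 stood apart, and after irradiation 751.1, 533.5 and 559.8 CPM. FTH1 rose in HCT116 by 1.43 (SE 0.169, adjusted p = 1.8e-07, edgeR), by 1.83 without that library and by 1.22 without NIR replicate 1. The mixtures held 175.1, 177.5 and 255.0 CPM and then 531.4, 492.7 and 484.0 CPM. FTH1 rose in them by 1.28 (SE 0.0976, adjusted p = 5.6e-10, edgeR). Against MCF10A, HCT116 stood at log2 -1.71 (adjusted p = 1.9e-07) without irradiation and at -0.67 after it (adjusted p = 3.7e-08, edgeR).

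FTL, the ferritin light chain (19:48965301-48966878), had smaller fold changes. In MCF10A it was at 420.5, 421.9 and 383.7 CPM and then at 463.9, 436.4 and 454.2 CPM, a log2 fold change of 0.12 (SE 0.0426). HCT116 held 817.0, 819.1 and 975.0 CPM and then 814.0, 708.8 and 744.2 CPM. FTL fell there by 0.20 (SE 0.0684, adjusted p = 0.019, edgeR), a call lost without NIR replicate 3 (-0.10, adjusted p = 0.17), IR replicate 2 (-0.16, adjusted p = 0.10) or IR replicate 3 (-0.18, adjusted p = 0.0894). In the mixtures the NIR libraries held 750.7, 838.1 and 805.8 CPM and the IR libraries 789.6, 747.8 and 743.3 CPM, overlapping, with log2 -0.10 (SE 0.0553, adjusted p = 0.16, edgeR). In HCT116 FTL exceeded its MCF10A level by 0.89 on the log2 scale without irradiation (adjusted p = 1.8e-09) and by 0.51 after it (adjusted p = 7.3e-10, edgeR).

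The balance of the ferritin chain mRNAs differed between the lines. The ratio of FTH1 to FTL counts was 1.44 to 1.77 in MCF10A NIR and 1.72 to 1.93 in MCF10A IR. In HCT116 it was 0.198 to 0.347 and then 0.752 to 0.923, and in the mixtures 0.212 to 0.316 and then 0.651 to 0.673. It was below 1 in every HCT116 and mixed library and above 1 in every MCF10A library. Ferritin genes have many processed pseudogenes, and 25 FTH1 pseudogene rows held 0.428% to 2.65% of the summed FTH1 counts and 16 FTL rows at most 0.310%, so reads shared with these copies make both levels uncertain by an amount the tables do not give.

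SLC40A1, ferroportin, is the known cellular iron exporter (2:189560579-189583758). It had 0 counts in 16 libraries, 4 in MCF10A IR replicate 3 and 2 in HCT116 IR replicate 1. In the groups at 0 a count of 3 over the group would be 0.0275 to 0.0318 CPM, a limit for counting error only. It passed the filter in no comparison.

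The difference between the lines' irradiation responses was tested over the 12 monoculture libraries, as HCT116 minus MCF10A. The MCF10A libraries in it are those of the contrast that chose HEPHL1. TFRC differed by 0.35 (SE 0.0684, adjusted p = 0.00019), FTH1 by 1.02 (SE 0.234, adjusted p = 0.0010), FTL by -0.40 (SE 0.0903, adjusted p = 0.0010) and SLC11A2 by -0.73 (SE 0.0882, adjusted p = 2.9e-07, edgeR). The median over all genes was -0.10. HEPH was at 0.93 (SE 1.45) and CP at -1.86 (SE 0.971), both on few counts and given as descriptions. LCN2 stood at -0.36 (SE 0.287), given as a description, and at -0.70 to -0.0176 with a library left out.

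Counted together, 7 of the 8 members tested in HCT116 irradiation passed, where 52.5% of all genes tested passed. Of these 7, 5 were higher (25.3% of all genes) and 2 lower (27.2%), and 7 of 8 did not overlap between groups (58.8%). In the mixtures 5 of 7 passed against 49.4% of all genes, 4 higher (24%) and 1 lower (25.4%), and 5 did not overlap (56.4%). In MCF10A 4 of 6 passed against 55.4%, all 4 higher (26.2%, and 29.2% lower), and 5 did not overlap (60.6%), but the choice of the set used that contrast and nothing is read from these counts. Between the lines, with HEPHL1 left out, 6 of 7 passed without irradiation and 6 of 6 after it, against 74.8% and 74.9%. For the difference of responses, with HEPHL1 and LCN2 left out, 4 of 6 passed against 37.3%. Members with few counts passed the filter only through the group where they were high. This held for HEPH between the lines and in the difference of responses, and for HEPHL1 in the irradiation of HCT116 and of the mixtures. It held too for CP between the NIR lines and in the irradiation of HCT116, through HCT116 NIR. So nothing about the members is read from any of these counts.

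**Figure D3:**
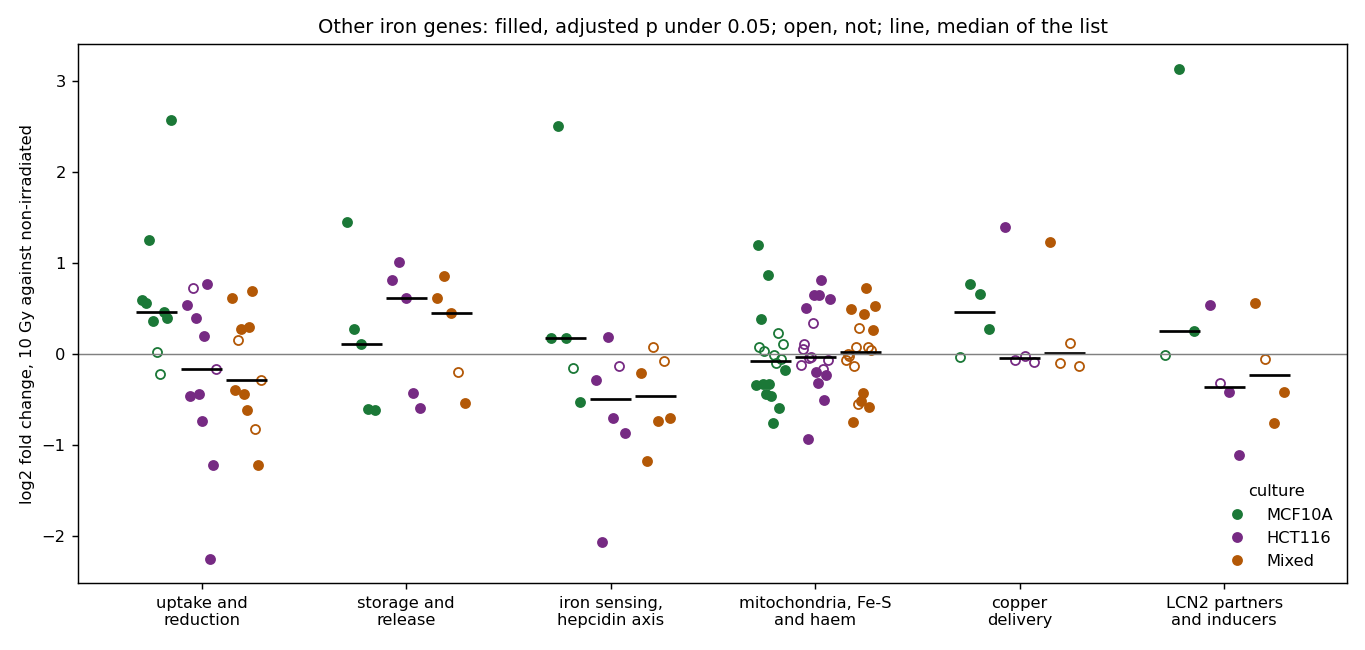
Log2 fold change of 10 Gy against non-irradiated for the other iron genes, by list and culture. Filled circles had an adjusted p under 0.05, open circles did not, and lines are the median of each list. Uptake and reduction genes have a median of 0.46 in MCF10A and of -0.16 in HCT116.

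A further 52 iron genes in 6 lists were counted beside the members. In HCT116 irradiation 33 of 48 tested passed, where 52.5% of all genes did, 15 higher (25.3% of all genes) and 18 lower (27.2%). In the mixtures 29 of 48 passed against 49.4%, 14 higher (24%) and 15 lower (25.4%). MCF10A had 32 of 44 against 55.4%, 21 higher (26.2%) and 11 lower (29.2%). The counts of single lists below stand against these same shares of all genes, and nothing about a list is read from them.

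Of the genes of uptake and reduction, 4 rose and 5 fell among 11 tested in HCT116. STEAP3, the endosomal ferrireductase, rose from 41.3 ± 0.250 to 70.0 ± 6.70 CPM (SD, n = 3, log2 0.77, adjusted p = 1.1e-08 by edgeR). CYBRD1, a ferrireductase of the duodenal surface, rose by 0.55 in HCT116 and 0.62 in the mixtures, and its log2 fold change in MCF10A was 0.60. STEAP1 fell by 0.73 in HCT116 and by 0.61 in the mixtures. MCOLN1, a lysosomal cation channel that passes iron, was at 10.1 ± 0.890 and 15.1 ± 1.29 CPM in NIR and IR MCF10A, and at 11.4 ± 1.17 and 8.24 ± 0.898 CPM in HCT116 (SD, n = 3). In MCF10A 7 of 9 tested genes of this list were called, all 7 higher, where 26.2% of all genes were called higher and 29.2% lower.

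Of the genes of storage and release, 3 rose and 2 fell in HCT116. HMOX2 and HMOX1 are haem oxygenases, which free iron from haem, and NCOA4 carries ferritin to lysosomes. In HCT116 HMOX2 rose by 1.02, HMOX1 by 0.82 and NCOA4 by 0.62 on the log2 scale. NCOA4 was at 207.8 ± 6.20 CPM in HCT116 NIR and 317.9 ± 4.61 CPM in HCT116 IR, and at 201.8 ± 2.23 and 222.5 ± 9.04 CPM in MCF10A (SD, n = 3). The iron chaperone PCBP2 had a log2 fold change of -0.61 in MCF10A and fell by 0.54 in the mixtures. In HCT116 it was at 122.2 ± 2.89 CPM in NIR and 81.1 ± 5.87 CPM in IR (SD, n = 3).

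Of the genes of iron sensing, 1 rose and 4 fell among 6 tested in HCT116, and of copper delivery 1 rose among 4. BMP6, a ligand that induces hepcidin in liver, was at 1.47 ± 0.342 and 8.49 ± 1.74 CPM in NIR and IR MCF10A, against 3.50 ± 1.01 and 0.824 ± 0.276 CPM in HCT116 (SD, n = 3). IREB2, an iron regulatory protein, was at 170.1 ± 6.66 and 120.6 ± 1.09 CPM in MCF10A, and ACO1, the other, fell by 0.28 in HCT116. HFE, which binds the transferrin receptor, fell by 0.70 in HCT116 and by 0.73 in the mixtures. ATOX1, the copper chaperone that hands copper to the pumps which load ferroxidases, rose from 15.7 ± 0.228 to 41.0 ± 3.36 CPM in HCT116 (SD, n = 3, log2 1.40, adjusted p = 1.3e-11 by edgeR). It stood at 28.8 CPM in both MCF10A groups. The pumps ATP7A and ATP7B had log2 fold changes of 0.77 and 0.67 in MCF10A, and in HCT116 neither was called.

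Of 18 mitochondrial, iron-sulphur and haem genes, 5 rose and 5 fell in HCT116. CPOX, a haem synthesis enzyme, fell from 544.5 ± 33.7 to 284.3 ± 32.3 CPM (SD, n = 3, log2 -0.93, adjusted p = 1.1e-10 by edgeR). NFS1 and ISCU, which build iron-sulphur clusters, rose by 0.81 and 0.65. In MCF10A 11 of 18 tested genes of this list were called, 3 higher and 8 lower. Of all genes 26.2% were called higher and 29.2% lower there.

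Among LCN2 partners and inducers, SLC22A17, a receptor for LCN2, had 0 counts in all MCF10A libraries and 8.04 ± 0.481 CPM in HCT116 NIR (SD, n = 3). It was at least 265-fold higher there, taking 3 counts over the MCF10A group as the floor, or at least 132-fold on halved counts. It fell to 3.72 ± 0.538 CPM in irradiated HCT116 (log2 -1.10, adjusted p = 8.8e-06 by edgeR). NFKBIZ, a co-activator needed for LCN2 induction, stood at 55.2 ± 2.90 and 66.8 ± 2.28 CPM in MCF10A and at 9.73 ± 0.945 and 7.30 ± 1.25 CPM in HCT116 (SD, n = 3). Any link of these levels to those of LCN2 was not tested. In HCT116 NFKBIZ fell by 0.41 (adjusted p = 0.025, edgeR), a call lost without NIR replicate 3 (adjusted p = 0.10), IR replicate 1 (adjusted p = 0.13) or IR replicate 2 (adjusted p = 0.061).

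The genes most like HEPHL1 and LCN2 were ranked by Pearson's r of log2(CPM + 1) over the 18 libraries among 10914 genes, as a description that the group differences dominate. For HEPHL1 these were BTG1 (r = 0.97), SERINC1, GFPT1, SLC12A4 and ARFGAP1. BTG1, an antiproliferative gene, was at 92.6 CPM in MCF10A IR and at 43.2 to 58.1 CPM in the other groups' means. For LCN2 these were ZFP41 (r = 0.93), TPM2, PCDH1, ZDHHC24 and SEPTIN9. PCDH1, a protocadherin, was at 87.7 CPM in HCT116 IR and at 37.0 to 69.0 CPM elsewhere.

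The mixtures were set against HCT116 alone, since nearly all of their RNA came from that line. From genes specific to a line, the MCF10A share of counted RNA was 0.447% ± 0.0528 in Mixed NIR and 1.24% ± 0.0662 in Mixed IR (SD, n = 3). Fewer MCF10A cells and less RNA per cell cannot be told apart. A weighted sum of the monoculture levels at these shares gives what a mixture would hold if each line kept its level.

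LCN2 was lower in the mixtures than in HCT116 alone at both treatments. The log2 difference was -1.77 without irradiation (SE 0.238, adjusted p = 0.00023, edgeR) and -2.20 after it (SE 0.125, adjusted p = 8.7e-14, edgeR), with no overlap. The weighted sums were 5.46 and 29.3 CPM, against measured means of 1.59 ± 0.432 and 6.50 ± 1.45 CPM (SD, n = 3), so the mixtures held 0.292 and 0.222 of them. In the weighted sum for IR the MCF10A part was 0.0721 CPM. The presence of MCF10A cells and a possible change of medium cannot be told apart here.

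HEPHL1 was at 1.58 ± 0.668 CPM in Mixed IR (SD, n = 3) against a weighted sum of 3.16 CPM, of which 0.521 CPM is the MCF10A part. In the weighted sum for NIR that part was 0.00734 CPM. Against HCT116 IR the log2 difference was -0.78 (SE 0.296, adjusted p = 0.11, edgeR). With a library left out it was -1.18 (without Mixed IR replicate 1, adjusted p = 0.016) to -0.58 (without HCT116 IR replicate 2). The adjusted p of these fits ran up to 0.39 (edgeR). Without irradiation the difference between the mixtures and HCT116 was -1.11 (SE 0.690, adjusted p = 0.50, edgeR).

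FTH1 was lower in Mixed IR than in HCT116 IR, at log2 -0.30 (SE 0.0762, adjusted p = 0.011, edgeR). That call was lost in DESeq2 (adjusted p = 0.31), with all 18 libraries in one fit (adjusted p = 0.43), and without HCT116 IR replicate 1 (-0.13, adjusted p = 0.13), Mixed IR replicate 2 (adjusted p = 0.053) or Mixed IR replicate 3 (adjusted p = 0.086). SLC11A2 was higher by 0.29 (SE 0.0675, adjusted p = 0.0045, edgeR). TFRC was higher in Mixed NIR than in HCT116 NIR by 0.31 (SE 0.0691, adjusted p = 0.023, edgeR), a call lost without HCT116 NIR replicate 2 or 3 or Mixed NIR replicate 1 (adjusted p = 0.16, 0.075 and 0.19).

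In these comparisons 2 of 8 members tested passed without irradiation, where 2.04% of all genes did, and 3 of 7 after it, where 8.56% did. Among the other iron genes edgeR called 0 of 48 without irradiation, with 7 at an unadjusted p under 0.05, and DESeq2 called 1. After irradiation edgeR called 3 of 47, among them CPOX, higher by 0.41, and ISCU, at log2 -0.27.

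**Figure D4:**
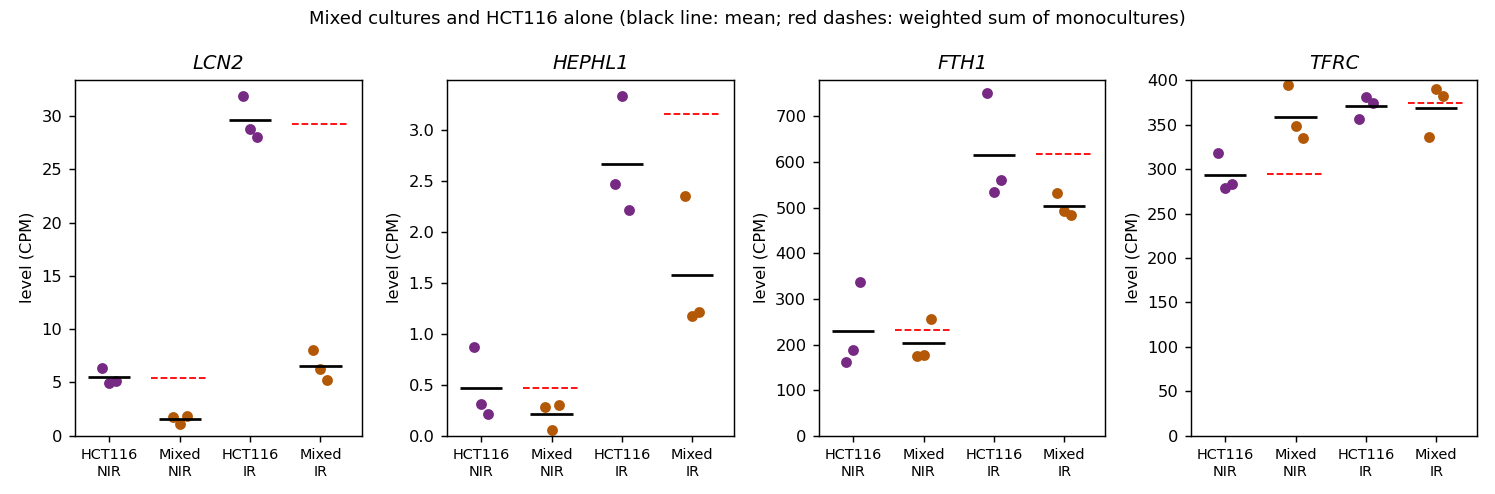
Level in CPM of LCN2, HEPHL1, FTH1 and TFRC in each library of HCT116 alone and of the mixtures. Black lines are means and red dashes the weighted sum of the monocultures. LCN2 in Mixed IR averages 6.50 CPM, below its weighted sum of 29.3 CPM.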

How the data were processed

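The authors deposited raw counts per gene symbol, 1 table per library and 40916 symbols each, without normalization. The submitters' processing notes name fastp, STAR and featureCounts and the build GRCh38. The annotation and the strand and mate settings are not given in the sources used here. CPM were computed from these counts and library totals.

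The members and lists were chosen with earlier results of these data known. In each list and comparison, the called genes of largest absolute log2 fold change were named, at most 3, if a compared group averaged 5 CPM or more. Some genes that this rule or the plan names are not reported here. Comparisons were fitted in edgeR 4.0.16 (R 4.3.3) after TMM scaling and filterByExpr, by the 2-sided quasi-likelihood test on the compared groups and Benjamini-Hochberg adjustment over all genes (called under 0.05). DESeq2 1.42.0 was an alternative. The fits were also run on simulated counts with the same spread for all genes and changes only above a minimum level. That does not cover members with few counts. Line-specific genes averaged 20 CPM or more in a line and were below 1 CPM in each library of the other. The main fits did not pair libraries by replicate number. Residuals of same-numbered libraries had r of -0.24 to 0.26 over 15 group pairs. That r was 0.098 to 0.259 between HCT116 IR and Mixed IR, and 0.005 to 0.250 between HCT116 NIR and Mixed NIR. Whether libraries of these groups are paired is not settled, and fits with a replicate block are given below. No batch is labelled.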

Additional observations from a re-analysis of the deposited data

Results flagged for a closer look

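These results stand out because the response to irradiation differed between HCT116 and MCF10A by the test of the difference itself (edgeR, adjusted p under 0.05, log2 response in HCT116 minus that in MCF10A, median of all genes -0.10). Among the members, the difference was 0.35 for TFRC, 1.02 for FTH1, -0.40 for FTL and -0.73 for SLC11A2. With a library left out FTH1 was 0.82 (without HCT116 NIR replicate 1) to 1.43 (without HCT116 NIR replicate 3).

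Among the other iron genes it was -1.10 for MCOLN1, -0.59 for STEAP1 and -0.54 for SLC39A8 in uptake and reduction. In storage and release it was -0.71 for HMOX1, 0.66 for HMOX2 and 0.42 for NCOA4. For iron sensing it was -4.64 for BMP6, -0.62 for HFE and -0.54 for ACO1. Mitochondrial and haem genes stood at -1.22 for ABCG2 and 0.83 for NFS1, and copper genes at 1.35 for ATOX1, -0.91 for ATP7A and -0.77 for ATP7B. NFKBIZ stood at -0.75. HMOX1 lost its call by library size (-0.66), without a filter (-0.61) and when any of 8 libraries was left out (MCF10A NIR replicates 2 and 3, MCF10A IR replicates 1 to 3, HCT116 NIR replicate 1, HCT116 IR replicates 1 and 2). HFE lost it without MCF10A IR replicate 1 (-0.44) or 3 (-0.48) or HCT116 IR replicate 2 (-0.45).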

How the results depend on the processing

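Over the alternatives, 879 of 927 member values kept their direction and side of the threshold, 18 lost a call, 7 gained one and 23 changed sign. The values that changed sign were not called, and the cause was not tested. TFRC in irradiated mixtures was -0.00296 without a filter and -0.0445 to 0.0743 when a library was left out. TFRC in irradiated MCF10A was 0.000886 with upper-quartile factors. For Mixed IR against HCT116 IR, TFRC was 0.0142 with all libraries in one fit, FTL 0.00870 by library size, 0.00163 without a filter and 0.0295 with all libraries. With a library left out, TFRC there was -0.0572 to 0.0443, FTL -0.0436 to 0.0580 and HEPH -0.0672 to 0.230. For Mixed NIR against HCT116 NIR, such fits gave FTH1 -0.37 to 0.24 (the highest without HCT116 NIR replicate 3), CP -0.21 to 0.41 and SLC11A2 -0.0653 to 0.0941. HEPH in the difference of responses was -2.65 to 4.77, the lowest without MCF10A NIR replicate 1, which held its only NIR counts there. NCOA4 between the NIR lines, called at -0.16, was 0.0467 with upper-quartile factors and 0.0432 by library size.

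Counts of calls moved as follows. MCF10A irradiation had 2 members called with all 18 libraries in one fit, against 4. Mixed NIR against HCT116 NIR had 335 genes called, 573 with DESeq2, 671 without a filter, 768 with all libraries and 145 to 313 with a library left out, when 1 to 2 members were called. Mixed IR against HCT116 IR had 1467 genes called and 866 to 1312 with a library left out. The MCF10A RNA share was 0.345% and 1.07% with a minimum of 50 CPM. With ferritin pseudogene rows added, chosen after seeing the data, no call of a member changed.

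With the replicate number as a replicate block, 716 genes were called for Mixed NIR against HCT116 NIR and 2220 for Mixed IR against HCT116 IR. HEPHL1 in the latter was then -0.81 (adjusted p = 0.0487, edgeR) and FTL 0.00102. The block also changed the call of TFRC in MCF10A irradiation, FBXL5 in HCT116 and SLC22A17 in the mixtures, and of no other gene named. Depth limits CP, SLC40A1 and, in MCF10A, HEPH.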

Other observations

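Some iron genes below the level needed for naming were picked after their values were seen and are given as levels only. STEAP4, a ferrireductase, was at 0.174 ± 0.119 and 1.05 ± 0.511 CPM in NIR and IR MCF10A, and at 0.735 ± 0.602 and 0.152 ± 0.0043 CPM in HCT116 (SD, n = 3). MMP9, a protease that binds LCN2, was at 0.364 ± 0.165 and 3.36 ± 0.906 CPM in MCF10A and at 0.170 ± 0.150 and 0.209 ± 0.119 CPM in HCT116. TMPRSS6, a protease that restrains hepcidin, was at 2.88 ± 0.128 and 1.60 ± 0.608 CPM in HCT116 and at 0.165 ± 0.162 and 0.174 ± 0.172 CPM in MCF10A. TF, transferrin itself, had 0 counts in MCF10A NIR and was at 0.982 ± 0.293 CPM in HCT116 NIR.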
